A study of Mus musculus with 6 samples.

Results

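The genes of interleukin 2 and of the receptors that share the common gamma chain were followed in the open chromatin of mouse CD8+ T cells. The 8 genes were Il2, Il2ra, Il2rb, Il2rg, Il7r, Il4ra, Il21r and Il15ra, and a peak belonged to one of them if its summit lay inside the gene body or if that gene was the nearest protein-coding gene within 100 kb. Of the 573921 peaks in the 6 libraries, 609 met this rule. After merging of overlapping peaks, 129 of 134174 regions were assigned to the 8 genes by their midpoint. No region was tied with another gene.

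The T cells were isolated from spleen, activated through CD3 and CD28, and cultured for 48 h below a porous transwell membrane with tumour cells above it. In the Res-shFabp7 group (3 biological replicates) the insert held lung adenocarcinoma cells resistant to PD-1 blockade that carried a short hairpin RNA against Fabp7, a fatty acid binding protein gene. In the Res-ctrl group (3 biological replicates) it held the control version of the resistant cells. Since the tumour cells and not the T cells carried the hairpin, these libraries hold no check of it, and all 6 T cell cultures had the same activation. The sources used here do not give the strain, sex or age of the mice, or say whether replicates came from separate mice, so the spread between libraries may be partly technical. ATAC-seq marks open DNA by transposase insertion and does not measure transcripts or protein. The comparison asks whether the accessible regions of T cells differ between these cultures.

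Interleukin 2 is a growth cytokine that CD8+ T cells secrete soon after activation. It binds a receptor of up to 3 chains: the alpha chain (Il2ra, CD25), which raises affinity and is induced by activation, the beta chain (Il2rb) and the common gamma chain (Il2rg). Il2rg also pairs with the private chains for interleukin 7 (Il7r), interleukin 4 (Il4ra) and interleukin 21 (Il21r), while Il15ra presents interleukin 15 to the beta and gamma chains. The receptors signal through the kinases JAK1 and JAK3 to STAT transcription factors, among them STAT5 for interleukins 2, 7 and 15.

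Promoter windows of 300 bases, from 250 bases before to 50 bases after the start of a transcript, were available for 7 of the 8 genes from RefSeq (GRCm38.p6). The windows of Il2, Il2ra and Il2rg are shown because they stand for the cytokine, its inducible receptor chain and the shared chain, and because the open region over each of them is described below. They lie at chr3:37125905-37126204 (minus strand) for Il2, chr2:11642542-11642841 (plus strand) for Il2ra and chrX:101268206-101268505 (minus strand) for Il2rg. Sequences run 5′ to 3′ along the gene, and capitals mark GGAAA or its reverse complement TTTCC, the core recognised by NFAT, a factor activated by T cell receptor signalling.
Il2: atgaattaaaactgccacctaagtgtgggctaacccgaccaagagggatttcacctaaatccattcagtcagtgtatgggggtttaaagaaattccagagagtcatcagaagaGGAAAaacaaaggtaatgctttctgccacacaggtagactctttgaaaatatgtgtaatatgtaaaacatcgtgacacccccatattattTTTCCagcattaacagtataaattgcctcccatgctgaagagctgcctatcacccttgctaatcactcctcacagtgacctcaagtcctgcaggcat
Il2ra: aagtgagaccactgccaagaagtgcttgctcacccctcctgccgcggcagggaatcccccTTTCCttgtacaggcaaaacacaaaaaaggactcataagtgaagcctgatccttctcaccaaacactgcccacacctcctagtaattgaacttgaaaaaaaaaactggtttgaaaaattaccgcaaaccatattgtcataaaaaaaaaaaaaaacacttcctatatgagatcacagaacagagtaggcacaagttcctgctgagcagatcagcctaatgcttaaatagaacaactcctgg
Il2rg: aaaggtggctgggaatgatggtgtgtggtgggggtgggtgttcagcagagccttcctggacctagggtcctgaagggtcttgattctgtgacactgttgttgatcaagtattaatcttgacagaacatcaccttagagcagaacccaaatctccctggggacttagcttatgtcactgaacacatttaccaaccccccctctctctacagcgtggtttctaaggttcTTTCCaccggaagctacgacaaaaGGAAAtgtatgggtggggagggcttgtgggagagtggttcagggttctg

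The NFAT core occurred 2 times in the Il2 window, 1 time in the Il2ra window and 2 times in the Il2rg window. The letters are common, since 61.3% of all 32851 windows held them on either strand. The STAT letters TTCNNNGAA, which read the same on both strands, were in 8.3% of all windows and, among the 7 genes, had 1 match in the window of Il7r and none in the others. A match is a description of letters and not a binding site. GC content was 42.0% in the Il2 window and 42.7% in the Il2ra window, against a median of 52.7% over all windows. An open region called in all 6 libraries covered all 300 bases of the Il2 and Il2ra windows and 207 bases of the Il2rg window.

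Peak lists were 104575, 105796 and 100243 long in Res-shFabp7 libraries, against 84844, 82153 and 96310 in Res-ctrl libraries. The most frequent background pileup, a relative measure of depth, was 1.03, 0.868 and 0.959 in Res-shFabp7 libraries and 0.709, 0.608 and 1.01 in Res-ctrl libraries, so Res-ctrl replicates 1 and 2 were the shallowest. A missing peak is therefore not evidence of closed chromatin. All 9 CD8 T cell markers had a region called in all 6 libraries, Cd8a and Cd8b1 included. So had 5 of 5 CD4 and regulatory T cell markers, 4 of 5 NK cell, 5 of 7 B cell, 5 of 7 myeloid and 2 of 6 epithelial tumour markers, while Ms4a1, Krt8 and Sftpc had no region in any library. The summed share of peaks was higher with Res-shFabp7 and did not overlap between groups for B cell markers (0.217 to 0.268 per 1000 with Res-shFabp7, against 0.183 to 0.208 with Res-ctrl) and epithelial markers (0.17 to 0.18 with Res-shFabp7, against 0.125 to 0.158 with Res-ctrl). Their part in the results below was not tested. In bulk libraries, more cells with an open region and more opening per cell cannot be told apart.

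All 8 genes had open regions in both groups, and few regions were called in all 3 libraries of one group and in none of the other. Of the 129 regions, 72 (55.8%) were called in all 6 libraries, against 42.2% of all regions. Each of the 7 genes with a known start had such a region over that start. Only 1 region (0.775%) was called with Res-shFabp7 alone, in 3 of 3 libraries against 0 of 3, where the share over all regions was 2.28%. Likewise, 1 region (0.775%) was called with Res-ctrl alone, where the share over all regions was 0.155%. The other 55 regions were called in part of the libraries, 23 of them in 1 library. More Res-shFabp7 than Res-ctrl libraries held a region in 37 cases (28.7%, against 38.5% of all regions), and more Res-ctrl libraries did in 15 cases (11.6%, against 11.8%). Of the 129 regions 64 (49.6%) lay inside a gene body, against 63.8% of all assigned regions, and the rest flanked the genes.

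The 8 genes together took a smaller share of the peak list with Res-shFabp7. They had 107, 109 and 102 peaks in Res-shFabp7 libraries and 95, 96 and 100 in Res-ctrl libraries. Per 1000 peaks of the library this is 1.02, 1.03 and 1.02 with Res-shFabp7, against 1.12, 1.17 and 1.04 with Res-ctrl. The means were 1.02 ± 0.00639 and 1.11 ± 0.0658 (SD, n = 3 each), a difference of −0.0852. The number of peaks was thus higher with Res-shFabp7 in every library while the share was lower in every library. Of 5706 single genes with at least 5 peaks on average, 13.4% also lay apart on the lower side and 8.24% on the higher side. These are rates for single genes and no matched background for a sum over 8 genes. The summed share of 7 kinases and transducers of the pathway was lower too (1.1 to 1.17 with Res-shFabp7, 1.24 to 1.29 with Res-ctrl). That of 6 other ligands was higher (0.309 to 0.363 with Res-shFabp7, 0.17 to 0.295 with Res-ctrl). Of these 6 only Il21 had at least 5 peaks on average, and its own share overlapped between groups. For the 8 genes the difference was −0.0146 when the shallow Res-ctrl replicates 1 and 2 were left out. It was −0.0649 with overlapping groups when each list was limited to its 82153 strongest peaks. At a q below 0.001 it was −0.0767, also with overlapping groups.

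**Figure D1:**
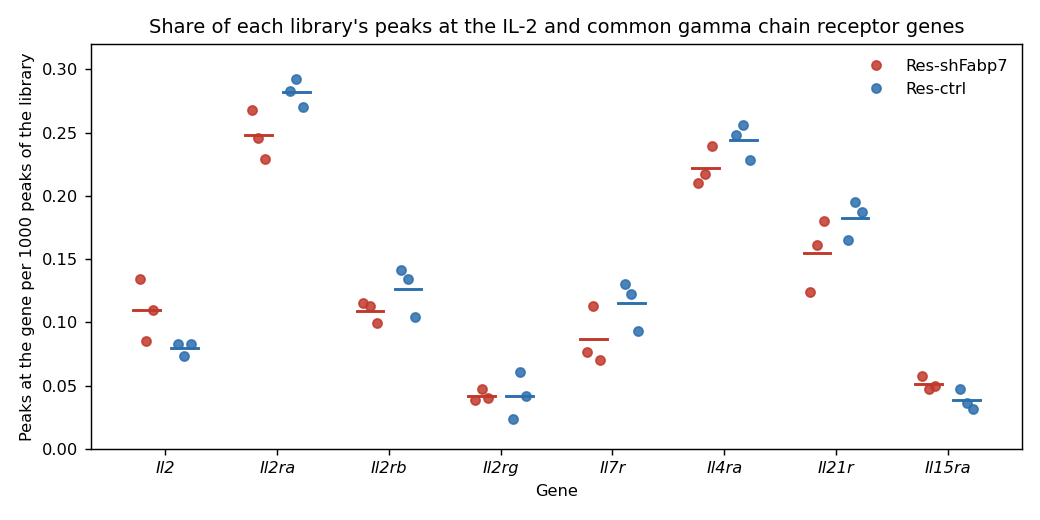
Peaks assigned to each gene per 1000 peaks of the library (y axis), by gene (x axis). Points are libraries, Res-shFabp7 at the left of each pair and Res-ctrl at the right, and bars are means of 3 libraries. The groups lie apart for Il2, higher with Res-shFabp7, for Il2ra, lower with Res-shFabp7, and by a narrow gap for Il15ra, which has few peaks.

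Il2, the ligand, ran against this direction. It had 14, 9 and 11 peaks in Res-shFabp7 libraries and 7, 6 and 8 in Res-ctrl libraries, which is 0.11 ± 0.0244 and 0.0795 ± 0.00564 per 1000 peaks (SD, n = 3 each). The share was 1.38 times as high with Res-shFabp7, with no overlap between groups (exact permutation p = 0.1, two-sided, which is the lowest value possible with 3 libraries a group). Among 5706 genes with at least 5 peaks on average, 8.24% had shares that did not overlap and were higher with Res-shFabp7, and 13.4% had shares that did not overlap and were lower. With 82153 peaks in each list the Il2 counts were 8, 7 and 9 with Res-shFabp7 and 6, 6 and 7 with Res-ctrl, and the groups overlapped, as they did when peaks within 20 kb alone were counted. No Il2 region lay inside the gene body by its midpoint. Of its 15 regions 6 were called in all 6 libraries, 8 were held by more Res-shFabp7 than Res-ctrl libraries and 0 by more Res-ctrl libraries. Over all regions these last 2 shares were 38.5% and 11.8%. Of the 8 regions, 4 were called in 1 library only.

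The region over the Il2 start (chr3:37125832-37126483) was taller with Res-shFabp7 in every library. It contains the whole Il2 promoter window printed above. Its summit pileup, the number of fragments or reads stacked at the highest point as the authors give it, was 27, 30 and 39 with Res-shFabp7, against 8, 13 and 15 with Res-ctrl. The authors' fold over local background was 6.2, 6.65 and 8.76 with Res-shFabp7 and 3.77, 6.47 and 5.21 with Res-ctrl, and on this scale Res-ctrl replicate 2 fell within the Res-shFabp7 range. Pileup is not scaled between libraries, so heights were also ranked within each library among the 56610 regions called in all 6. This region stood at the 26.3, 35.4 and 44.3 percentile in Res-shFabp7 libraries and at the 3.2, 18.6 and 8.0 percentile in Res-ctrl libraries. It was therefore a region below the median in all 6 libraries, and ranked lower in each Res-ctrl library than in any Res-shFabp7 library. Expressed as a normal score, a scale on which the median region is at 0, relative height averaged −0.38 with Res-shFabp7 and −1.38 with Res-ctrl, a difference of 1.00 (SE 0.26). The limma p adjusted over all regions was 0.185, so the difference did not pass 0.05. Among the regions of the 8 genes that were higher with Res-shFabp7 this one had the lowest p, and under 11 alternatives its difference lay between 0.55 and 1.24.

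Upstream of Il2 the heights went in both directions. The region 2580 bp upstream (chr3:37128303-37128766), chosen after its values were seen, had a pileup of 87, 68 and 72 with Res-shFabp7 and 30, 18 and 68 with Res-ctrl. Its difference in relative height was 0.58 (SE 0.21, limma adjusted p = 0.27), and 0.16 without Res-ctrl replicates 1 and 2, which carry the low values. The strongest Il2 region, 47607 bp upstream (chr3:37173354-37173768), had 106, 89 and 88 with Res-shFabp7 and 53, 61 and 73 with Res-ctrl, a difference of 0.21 (SE 0.10, adjusted p = 0.366) that turned to −0.08 with fold over background as the measure. In the opposite direction, the region 27178 bp upstream (chr3:37152893-37153371) had 16, 13 and 14 with Res-shFabp7 and 13, 12 and 19 with Res-ctrl. These pileups overlap, but within the libraries the region stood at the 7.8, 5.9 and 5.9 percentile with Res-shFabp7 and at the 15.6, 15.8 and 14.9 percentile with Res-ctrl. The difference of −0.50 (SE 0.08) had the lowest p of any region of the 8 genes (limma adjusted p = 0.122). A further region 35257 bp upstream (chr3:37161039-37161384), chosen after its values were seen, had 38, 17 and 30 with Res-shFabp7 and 8 in Res-ctrl replicate 3, with no peak in Res-ctrl replicates 1 and 2.

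**Figure D2:**
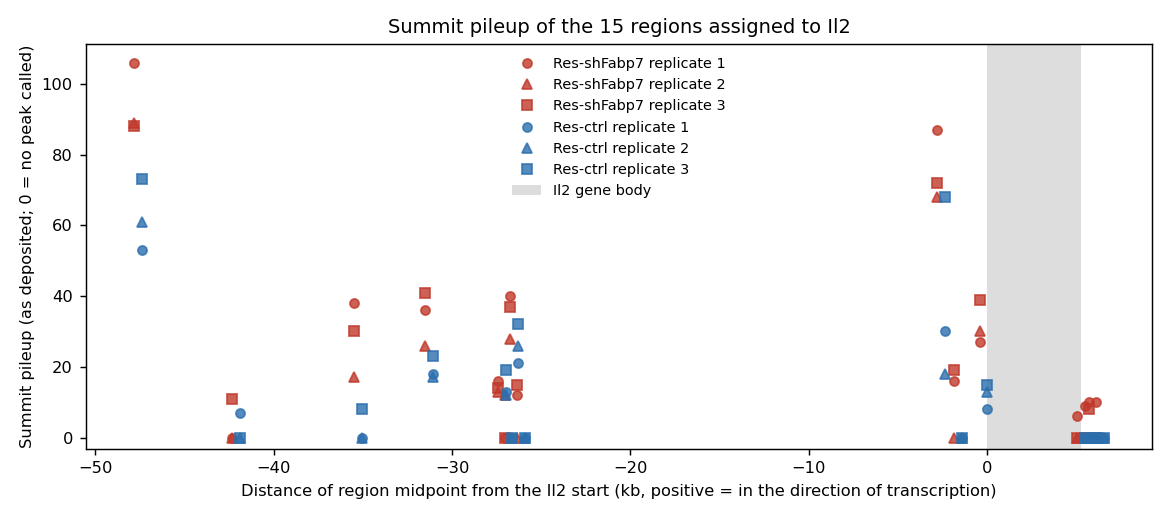
Summit pileup (y axis, as deposited, with 0 for no called peak) of the 15 regions assigned to Il2, by distance of the region midpoint from the gene start in kb (x axis). Each symbol is 1 library, the groups are shifted sideways so that both can be seen, and the grey band is the gene body. Over the gene start the Res-shFabp7 libraries have 27 to 39 and the Res-ctrl libraries 8 to 15.

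Il2ra, the inducible alpha chain, had more regions called in all 6 libraries than any other of the 8 genes. They numbered 20 of its 28 regions, and 1.18% of protein-coding genes have as many or more. The gene had 28, 26 and 23 peaks in Res-shFabp7 libraries and 24, 24 and 26 in Res-ctrl libraries. Against the longer lists this gave a lower share with Res-shFabp7, 0.248 ± 0.0192 per 1000 peaks, against 0.282 ± 0.0111 for Res-ctrl (SD, n = 3 each), without overlap (exact permutation p = 0.1). A share apart on the lower side was found for 13.4% of the 5706 genes with at least 5 peaks on average. With equal numbers of peaks the Il2ra difference shrank to −0.00406 per 1000 and the groups overlapped.

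Heights at Il2ra leaned the other way from its share, but this depended on the measure. Ranked by pileup, 15 of its 20 regions were relatively higher with Res-shFabp7 and 5 lower, whereas by fold over background 8 were higher and 12 lower. By pileup rank 5 of these 20 regions did not overlap between groups, all of them higher. Over all 56610 regions called in all 6 libraries, 11.6% lay apart on the higher side and 11.2% on the lower side. The promoter region (chr2:11642240-11643029), which contains the Il2ra window printed above, had a pileup of 173, 129 and 138 with Res-shFabp7 and 99, 99 and 141 with Res-ctrl, and its relative height overlapped between groups (difference 0.10, SE 0.10, limma adjusted p = 0.64, and −0.22 by fold). The strongest region, 10.87 kb into the gene (chr2:11653352-11653967), had 278, 249 and 306 with Res-shFabp7 and 179, 191 and 311 with Res-ctrl. In both regions Res-ctrl replicate 3 stood within or above the Res-shFabp7 values. The 5 regions without overlap, chosen after their values were seen, stood 16702 and 5402 bp upstream and 2.72, 4.58 and 8.86 kb into the gene. The region at 2.72 kb (chr2:11645375-11645652) had 64, 60 and 66 with Res-shFabp7 and 32, 31 and 31 with Res-ctrl, a relative difference of 0.48 (SE 0.14, limma adjusted p = 0.214). The region 5402 bp upstream (chr2:11637092-11637688) had 176, 176 and 173 with Res-shFabp7 and 99, 89 and 160 with Res-ctrl, a relative difference of 0.28 (SE 0.08, limma adjusted p = 0.212). At 4.58 kb (chr2:11647291-11647459) the pileups were 68, 62 and 63 with Res-shFabp7 and 34, 31 and 55 with Res-ctrl, with a difference of 0.28 (SE 0.08, adjusted p = 0.198). None of the 5 passed the threshold over all regions. By fold over background and by −log10 q the direction was kept at these 3 regions and at the region at 8.86 kb. At the region 16702 bp upstream it was lost by fold over background (limma adjusted p = 0.994). Leaving out libraries or adding the replicate block could not reverse the sign at any of the 5, since their libraries did not overlap.

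**Figure D3:**
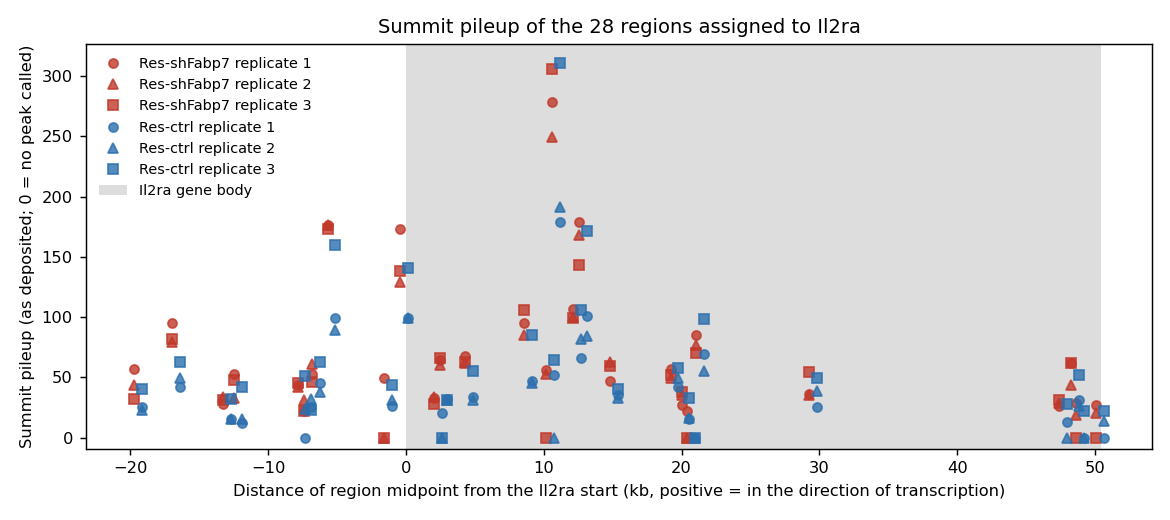
Summit pileup (y axis, as deposited, with 0 for no called peak) of the 28 regions assigned to Il2ra, by distance of the region midpoint from the gene start in kb (x axis). Each symbol is 1 library, the groups are shifted sideways, and the grey band is the gene body. The tallest region, at 10.87 kb, has 249 to 306 with Res-shFabp7 and 179 to 311 with Res-ctrl.

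Il2rb, the beta chain shared with the interleukin 15 receptor, had 13 regions, 9 of them called in all 6 libraries. Peaks numbered 12, 12 and 10 with Res-shFabp7 and 12, 11 and 10 with Res-ctrl, and the shares of 0.109 ± 0.0083 and 0.126 ± 0.0199 per 1000 overlapped (SD, n = 3 each; exact permutation p = 0.3). The strongest region, 3479 bp outside the gene at its lower coordinate (chr15:78475367-78476187), had a pileup of 226, 195 and 238 with Res-shFabp7 and 179, 145 and 287 with Res-ctrl, and its relative height differed by −0.04 (SE 0.11). The only region called with Res-ctrl alone was inside Il2rb (chr15:78493232-78493362), with a pileup of 32, 34 and 42 in Res-ctrl libraries. It lies close to a much taller region that all 6 libraries share (chr15:78493460-78494032; 182, 152 and 156 with Res-shFabp7, 113, 95 and 182 with Res-ctrl), and it no longer counted once gaps of up to 200 bp were merged. Beyond the higher coordinate of the gene, 4294 bp away, a weak region (chr15:78515743-78516087) had 15, 19 and 20 with Res-shFabp7 and 28, 18 and 46 with Res-ctrl. It stood at the 6.4, 16.8 and 16.2 percentile with Res-shFabp7, against the 45.0, 31.1 and 49.6 percentile with Res-ctrl. The relative difference was −0.95 (SE 0.20, limma adjusted p = 0.153). Its neighbour at 3230 bp (chr15:78514668-78515035) went the same way, with a relative difference of −0.45 (SE 0.14, limma adjusted p = 0.225). Both were chosen after their values were seen, and both stayed lower by fold over background and by −log10 q. Leaving out libraries or adding the replicate block could not reverse the sign, since their libraries did not overlap in rank.

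Il2rg, the common gamma chain, is short and had 6 regions, 2 of them called in all 6 libraries. It had 4, 5 and 4 peaks with Res-shFabp7 and 2, 5 and 4 with Res-ctrl, a mean of 4 that is below the 5 peaks asked of the genes in the share over all genes. The shares overlapped, and the sign of their difference changed between settings. The region over its start (chrX:101268118-101268412) was strong in every library. The pileup there was 136, 149 and 151 with Res-shFabp7 and 111, 92 and 137 with Res-ctrl, at the 84.9, 87.9 and 87.2 percentile with Res-shFabp7 and the 85.8, 84.3 and 83.2 percentile with Res-ctrl. The relative difference of 0.10 (SE 0.08, limma adjusted p = 0.599) was within the overlap of the libraries.

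Il7r, the interleukin 7 receptor chain of naive and memory T cells, had 15 regions, of which 7 were called in all 6 libraries and 7 in 1 library. Its peaks numbered 8, 12 and 7 with Res-shFabp7 and 11, 10 and 9 with Res-ctrl, with overlapping shares of 0.0866 ± 0.0235 and 0.115 ± 0.019 per 1000 (SD, n = 3 each; exact permutation p = 0.2). Its strongest region, 1.49 kb into the gene (chr15:9527987-9528789), had a pileup of 145, 128 and 138 with Res-shFabp7 and 101, 77 and 155 with Res-ctrl. Over the start (chr15:9529550-9529993) the pileup was 96, 107 and 103 with Res-shFabp7 and 58, 53 and 119 with Res-ctrl. In both, Res-ctrl replicate 3 was the tallest library of all, and the relative differences were 0.08 (SE 0.09) and 0.15 (SE 0.11). A weak region 19335 bp upstream (chr15:9549174-9549379), chosen after its values were seen, had 12, 8 and 9 with Res-shFabp7 and 13, 12 and 11 with Res-ctrl, a relative difference of −0.96 (SE 0.30, limma adjusted p = 0.228) that was −0.32 without Res-ctrl replicates 1 and 2.

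Il4ra and Il21r, the chains for interleukin 4 and interleukin 21, are neighbours on chromosome 7, so the regions between them were divided by distance. Il4ra had 28 regions, 15 of them in all 6 libraries, and 22, 23 and 24 peaks with Res-shFabp7 against 21, 21 and 22 with Res-ctrl (0.222 ± 0.0152 and 0.244 ± 0.014 per 1000, SD, n = 3 each; exact permutation p = 0.2). Il21r had 18 regions, 11 of them in all 6 libraries, and 13, 17 and 18 peaks with Res-shFabp7 against 14, 16 and 18 with Res-ctrl (0.155 ± 0.0281 and 0.182 ± 0.0154 per 1000, SD, n = 3 each; exact permutation p = 0.2). The shares of both genes overlapped between groups. With 82153 peaks in each list Il4ra had 16, 19 and 19 peaks with Res-shFabp7 and 21, 21 and 21 with Res-ctrl, which no longer overlapped, while Il21r still did. The tallest region of all 8 genes lay in the space between them, 9457 bp beyond Il4ra (chr7:125588703-125589160). It had a pileup of 434, 386 and 443 with Res-shFabp7 and 294, 256 and 462 with Res-ctrl, and stood at the 99.3, 99.1 and 99.3 percentile with Res-shFabp7 and at the 98.4, 98.4 and 99.2 percentile with Res-ctrl. Its relative difference was 0.20 (SE 0.10, limma adjusted p = 0.41). Over the Il4ra start (chr7:125552098-125552383) the pileup was 164, 167 and 150 with Res-shFabp7 and 116, 122 and 182 with Res-ctrl, with a relative difference of 0.00 (SE 0.09).

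At Il4ra more regions were relatively lower than higher with Res-shFabp7. By pileup rank 4 were higher and 11 lower, with a median difference of −0.06, and by fold 1 was higher and 14 lower. At Il21r 7 were higher and 4 lower by pileup rank, with a median difference of 0.07, and by fold 3 were higher and 8 lower. The strongest Il21r region, 27.02 kb into the gene (chr7:125630215-125630694), had 220, 218 and 223 with Res-shFabp7 and 166, 133 and 232 with Res-ctrl, a relative difference of 0.12 (SE 0.08). A weaker region 18.39 kb into Il21r (chr7:125621638-125621998), chosen after its values were seen, had 64, 47 and 43 with Res-shFabp7 and 19, 20 and 41 with Res-ctrl. This pileup was higher in every Res-shFabp7 library, and the relative difference was 0.48 (SE 0.14, limma adjusted p = 0.215). It was 0.27 without Res-ctrl replicates 1 and 2, which carry the low values. At the Il21r start (chr7:125603073-125603670) the pileup was 209, 164 and 178 with Res-shFabp7 and 123, 117 and 196 with Res-ctrl, which overlapped.

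Il15ra, next to Il2ra on chromosome 2, had 6 regions, 2 of them called in all 6 libraries. Its peaks numbered 6, 5 and 5 with Res-shFabp7 and 4, 3 and 3 with Res-ctrl, or 0.0515 ± 0.00525 and 0.0383 ± 0.00814 per 1000 (SD, n = 3 each). The shares did not overlap (exact permutation p = 0.1), by a narrow gap of 0.0473 in the lowest Res-shFabp7 library to 0.0471 in the highest Res-ctrl library, and they overlapped with equal numbers of peaks. With a mean of 4.33 peaks, Il15ra is also below the 5 peaks asked of the genes in the share over all genes, so its separation has no such share beside it. The only region called with Res-shFabp7 alone was 10.35 kb into Il15ra (chr2:11715544-11715735), with a low pileup of 10, 8 and 11 and a fold of 5.39, 4.82 and 6.12. Over the start (chr2:11705246-11706048) the pileup was 143, 112 and 128 with Res-shFabp7 and 86, 79 and 119 with Res-ctrl. The relative difference was 0.13 (SE 0.08, limma adjusted p = 0.48), without overlap in rank, and −0.14 was its lowest value under 12 alternatives.

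**Figure D4:**
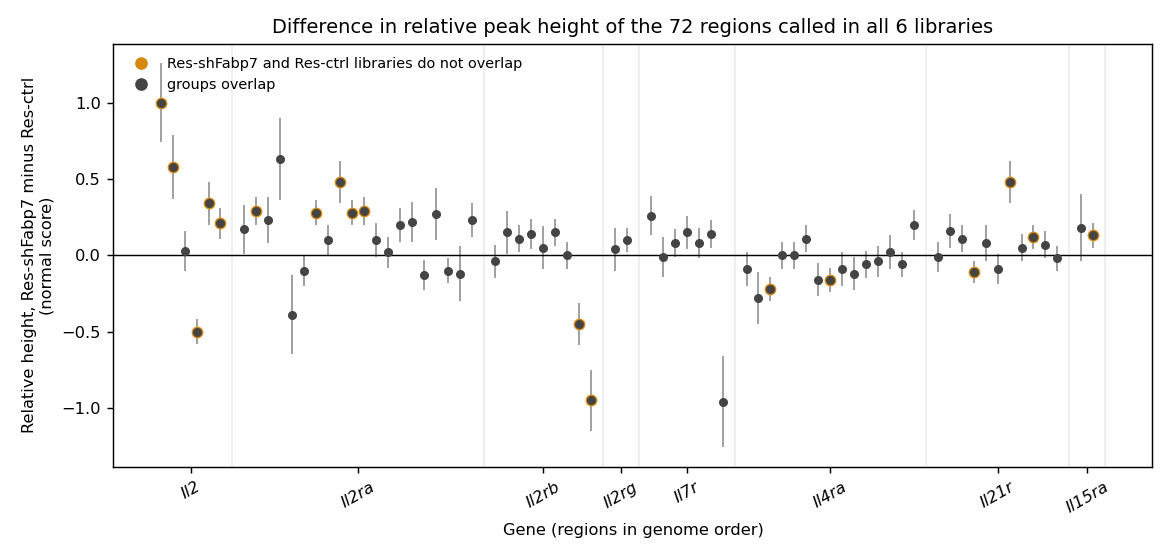
Difference in relative height, Res-shFabp7 minus Res-ctrl, in normal scores (y axis), of the 72 regions called in all 6 libraries, by gene and in genome order (x axis). Points are limma estimates from 3 libraries a group, lines are their SE, and orange rims mark regions whose libraries do not overlap between groups. The difference of 1.00 at the Il2 start and those of −0.95 at Il2rb and −0.96 at Il7r lie farthest from 0.

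Over all 72 shared regions no difference in relative height passed an adjusted p of 0.05. In the limma fit 0 of 72 regions passed, and 1 of 56610 regions did overall (0.00177%), with a lowest adjusted p of 0.122 among the 72. At an unadjusted p under 0.05 there were 9 higher regions and 5 lower ones, where 8.27% and 7.4% of all regions were called. Libraries did not overlap between groups for 12 higher and 6 lower regions, where the shares over all regions were 11.6% and 11.2%. In direction, 45 of the 72 (62.5%) were higher with Res-shFabp7, against 47.8% of all regions, and the median difference was 0.08, against −0.01. This lean was turned round by the measure. With fold over background in place of pileup 19 regions were higher and 53 lower, with a median of −0.13. No share over all regions by fold is given here, so whether this direction is particular to these genes was not tested. The same holds for the fold counts of single genes above. Without Res-ctrl replicates 1 and 2 by pileup 38 were higher and 34 lower. The 72 regions were of ordinary width, with a median of 345.5 bp against 353 bp over all regions in all 6 libraries.

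The other 28 genes of the pathway had 495 regions, 217 of them called in all 6 libraries, and no region passed the height threshold. Of the 495 regions 10 (2.02%) were called with Res-shFabp7 alone and 2 (0.404%) with Res-ctrl alone, against 2.28% and 0.155% of all regions. The first share is near that over all regions, and the second rests on 2 regions, so the regions named next are a description. Among 6 other ligands there were 4 with Res-shFabp7 alone and 0 with Res-ctrl alone. Of these, 2 belonged to Il21, the ligand of Il21r and the neighbour of Il2 on chromosome 3, and 2 to Tslp, whose receptor contains Il7r. The Il21 regions had a pileup of 10, 14 and 12 at chr3:37188927-37189214 and 12, 13 and 14 at chr3:37219988-37220216 with Res-shFabp7, with no Res-ctrl peak. Il21 had 24, 21 and 20 peaks with Res-shFabp7 and 17, 8 and 18 with Res-ctrl, and as a share of the list the groups overlapped.

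Among 3 other receptor chains 1 region was called with Res-shFabp7 alone, in Il13ra1, which pairs with Il4ra in the interleukin 13 receptor. Among 7 kinases and transducers 2 were called with Res-shFabp7 alone, in Stat3 and in Stat6, which act downstream of interleukins 21 and 4, and 1 with Res-ctrl alone, in Jak1. The 6 brakes (Socs1, Socs2, Socs3, Cish, Ptpn2 and Ptpn6) had none in either direction. Among 6 target genes 3 were called with Res-shFabp7 alone, 2 at the growth regulator Myc and 1 at the effector factor Prdm1, and 1 with Res-ctrl alone, in the survival gene Bcl2. The tallest of these, at Prdm1 (chr10:44532596-44532779), had a pileup of 25, 28 and 33 with Res-shFabp7. As a share of the list, 0 of 20 pathway genes with at least 5 peaks on average lay apart on the higher side and 3 on the lower side, against 8.24% and 13.4% of all such genes. The 3 genes, which are near the number that the share over all genes gives, were Jak1, Stat5b and Bcl2. The mean share of Jak1 was 0.503 per 1000 in Res-shFabp7 libraries, against 0.585 in Res-ctrl libraries. For Stat5b it was 0.213 in Res-shFabp7 libraries against 0.232 in Res-ctrl libraries, and for Bcl2 0.538 against 0.631.

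Among 2461 genes with at least 10 peaks on average, those whose share of peaks over the 6 libraries was most like the summed share of the 8 genes were Ywhaq (Pearson r = 0.989), Rubcnl (0.987), Gm30990 (0.986), Wdr1 (0.986) and Arid4a (0.985). These are descriptions over 6 libraries in 2 groups, and every share has the length of the same list below it.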

How the data were processed

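ATAC-seq was done on 3 Res-shFabp7 and 3 Res-ctrl libraries, with paired reads of 76 bases and 35 to 75 M read pairs per library, per the labels' protocols. The submitters' processing notes name Trim Galore 0.6.5, cutadapt 2.8, Bowtie 1.1.2, MACS2 2.2.7.1 and mm10. The sources used here do not give read shifting, duplicate handling or the caller's mode. Peaks were called on each library by the authors, who deposited a list for each and pooled no replicates. Per the file headers, each deposited list gives a p-value and q-value as −log10, the pileup signal (coverage) at the summit, not scaled between libraries, and the fold, a ratio to local background. All are the authors' values for each peak. The pileup is in whole numbers from 5 upward, and q is under 0.05 in every list. Genes came from a RefSeq table of GRCm38.p6 (21887 protein-coding genes), the primary assembly of mm10.

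Peaks were merged at 1 bp of overlap. Relative height is the normal score of the rank of a region's highest pileup within a library over regions called in all 6, compared with limma 3.58.1 (R 4.3.3) with Benjamini-Hochberg adjustment over all 56610 regions. Shares were compared by two-sided exact permutation (Python 3.11.15, scipy 1.17.1). The fits and the merging were tested on simulated data. Differences are Res-shFabp7 minus Res-ctrl. The 8 genes and the pathway and marker lists were chosen with earlier results of these data known. Named were all 8 genes, the strongest shared region, any region called with 1 group alone and the region over the start of each, the lowest p in each direction, pathway genes with a region called with 1 group alone, and the 5 genes of most similar share. Others are said to be chosen after their values were seen. Alternatives were stricter q, equal list lengths, other merging and distances, other height measures, a replicate block and leaving out each library. Leaving out Res-ctrl replicates 1 and 2 was added after seeing the data. No genome sequence was used beyond the RefSeq promoter windows.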

Additional observations from a re-analysis of the deposited data

How the results depend on the processing

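Of the recomputed values, 178 kept their direction and their side of the threshold, or stayed near the reported count. A further 11 moved and 7 changed sign. The 178 include shares whose groups went from apart to overlapping, such as Il2ra with equal list lengths (−0.034 to −0.00406 per 1000). They also include the count of regions called in all libraries used, which was 72 as reported. This count was 56 when peaks had to cover 50% of a region, 64 with equal list lengths and 81 without Res-ctrl replicates 1 and 2. No region of the 8 genes passed the height threshold under any alternative run. Regions called with Res-shFabp7 alone numbered 1 as reported, 4 when peaks had to cover 50% of a region, 1 to 5 when single libraries were left out, and 5 without Res-ctrl replicates 1 and 2. Regions called with Res-ctrl alone numbered 1 as reported, 0 with gaps of 200 bp merged, 1 to 2 when single libraries were left out, and 4 without Res-ctrl replicates 1 and 2. In the last setting a single Res-ctrl library is left, so a region needs fewer absences, and the summed share differed by −0.0146 per 1000 peaks. The summed share differed by −0.12 to −0.0553 when single libraries were left out. The Il2 share differed by 0.0326 per 1000 at q below 0.001, with groups still apart. With equal list lengths it differed by 0.0203 and with a gene distance of 20 kb by 0.0219, with overlapping groups in both. Leaving out single libraries gave 0.0179 to 0.0423, but could not change the sign, since the groups lay apart. The Il2rg share changed sign to 0.000268 per 1000 at q below 0.001, 0.00406 with equal list lengths and 0.000272 without Res-ctrl replicates 1 and 2, and ran from −0.00939 to 0.00925 when single libraries were left out. The Il2rb share changed sign to 0.00548 without Res-ctrl replicates 1 and 2. The cause was not tested. By pileup rank 45 of 72 regions were higher and 27 lower, but by fold 19 were higher and 53 lower. Heights at an unadjusted p under 0.05 were 2 higher and 9 lower by fold, 5 and 7 by −log10 q, and 10 and 5 by quantile-normalised log2 pileup.

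The sources used here do not say whether replicate numbers pair the libraries. Deviations from the group means had correlations of −0.0245, 0.015 and −0.0158 between same-numbered libraries. With 3 libraries a group these values cannot decide whether the libraries were paired. With the replicate block 0 regions were called higher and 0 lower, and the difference at the Il2 start was 0.999. Which regions were missed in the shallow Res-ctrl libraries because of their depth was not tested. With 3 libraries a group the permutation p cannot go below 0.1.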
